A study of Mus musculus with 4 samples.

Results

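The genes followed here encode the enzymes of glycolysis, the carriers of glucose and lactate, the enzymes that pass pyruvate to the mitochondrion and the main enzymes of the pentose phosphate pathway. They were chosen by symbol: 34 genes were listed from pathway knowledge, with earlier results of these data known, and all 34 were found among the 50600 genes of the deposited table. The cells were Py8119, a mouse mammary tumour line on the C57BL/6 background that its labels call mesenchymal-like. The control group (titled hygro, genotype control) and the Mtss1 overexpression group (titled Mtss1) had 2 libraries each, here called control 1 and 2 and overexpression 1 and 2. All 4 came from cells grown in IMDM with fetal bovine serum and left untreated. The sources used here do not give how Mtss1 was introduced or whether either population was grown from a single clone. The labels do not state whether a group's libraries are separate cultures, and the p-values below rest on the spread between them, which may be technical only.

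Glycolysis splits glucose into pyruvate in the cytosol. Tumour cells often run it at a high rate with oxygen present and release the product as lactate, which is why carriers for glucose and for lactate are counted with the pathway. Flow is set mainly at glucose entry, at hexokinase, at phosphofructokinase and at pyruvate kinase, and most steps can be served by several related genes (isozymes) whose enzymes differ in regulation and tissue. Glucose 6-phosphate can leave the pathway for the pentose phosphate route, which makes NADPH and ribose, and pyruvate can enter the citric acid (TCA) cycle through the pyruvate dehydrogenase complex, which the PDK kinases switch off.

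Levels are in CPM, the deposited read counts scaled to library size, and 1 read was worth 0.0460 to 0.0630 CPM in libraries of 15594209 to 22081639 recovered reads. Mtss1 itself read 54.5 and 50.5 CPM in the control libraries, against 118 and 119 CPM with overexpression, a rise of 1.16 ± 0.05 on the log2(CPM + 1) scale (limma adjusted p = 4.8e-15). The line's labelled character was checked on listed marker genes. All 8 mesenchymal markers passed the filter. Vim and Fn1 read 4010 CPM or more in every library, while Col1a1 read 1.06 to 2.90 CPM. With overexpression 4 of the 8 were lower, among them S100a4 (-1.51 on the log2 scale) and Col1a2 (-1.23), and 3 were higher, among them Sparc (1.18); their part in the results below was not tested. Epcam was listed at 0 in every library, and Cdh1 reached at most 0.0920 CPM. Krt8 and Krt18, keratin genes of luminal epithelium, were present, with 562 and 608 CPM of Krt8 in control against 367 and 368 CPM with overexpression. Summed markers of basal epithelial, immune, endothelial, and adipocyte or muscle cells reached at most 1.19 CPM in any library. In such bulk RNA, a change in every cell and a change in the share of cells with a transcript cannot be told apart.

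Of the 34 genes, 32 passed the expression filter of at least 1 CPM in at least 2 libraries. With Mtss1 overexpression 19 of the 32 were lower, 7 were higher and 6 did not pass the test (limma on log2(CPM + 1), Benjamini-Hochberg adjusted over 12510 genes, threshold 0.05). That is 59.4% lower and 21.9% higher, where 34.2% of all tested genes were lower, 31.9% higher and 66.1% changed in either direction. The median log2 fold change of the 32 was -0.19, against -0.01 over all tested genes. Control and overexpression values were fully separate for 27 of the 32 genes, a share close to the 81.6% found over all tested genes. The falls ran along the whole central route: glucose entry, hexokinase, every tested gene from triose phosphate isomerase to lactate dehydrogenase, and lactate exit, while Gpi1, Pfkp and Aldoa on that route did not pass and Pfkm rose. The rises lay in a phosphofructokinase isozyme, its activator enzymes, a PDK kinase, a pyruvate dehydrogenase subunit and the non-oxidative pentose phosphate enzymes. Summed over the 34 genes, the control libraries held 18073 and 19472 CPM, against 15409 and 15826 CPM with overexpression.

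**Figure D1:**
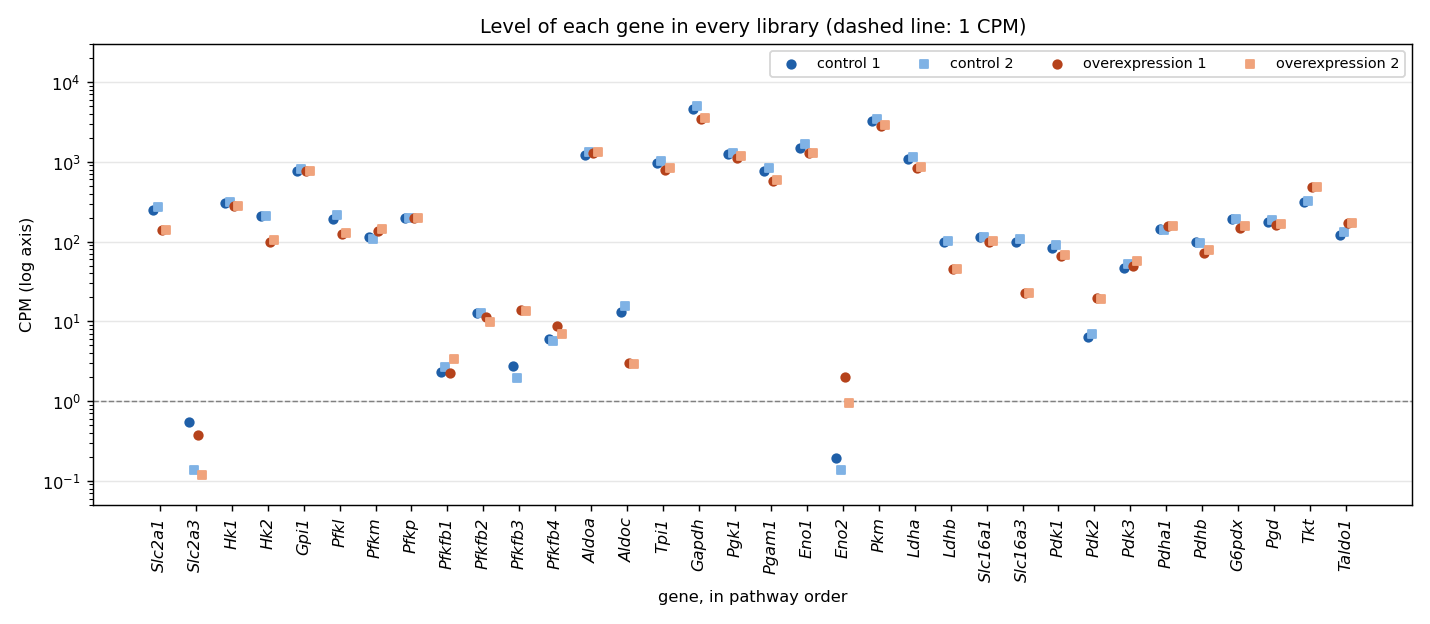
CPM of each of the 34 genes in the 4 libraries, on a log axis, with genes in pathway order from glucose entry to the pentose phosphate pathway; the dashed line marks 1 CPM. Gapdh is the highest gene in every library, and the red and orange points of overexpression lie well below the blue ones for Slc2a1, Hk2, Aldoc, Ldhb and Slc16a3 and above them for Pfkfb3, Pdk2, Tkt and Taldo1.

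The spread between libraries of a group had a pattern of its own in these genes. Of the 32 tested, 23 (71.9%) read higher in control 2 than in control 1, against 52.0% of all tested genes. The median difference was 0.08 on the log2(CPM + 1) scale, against 0.0047 over all tested genes. Between the overexpression libraries 24 of the 32 (75%) read higher in overexpression 2, against 54.8% of all tested genes. The median there was 0.03, against 0.01. The smallest falls below, of Pgd, Hk1 and Pgk1, are between 0.13 and 0.15 on the same scale, less than 2 times that shift between the control libraries.

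Promoter sequences are shown for 5 genes among the textbook targets of hypoxia-inducible factor (HIF), which binds the core ACGTG. They were picked after their values were seen. RefSeq promoter windows (GRCm38.p6, the build that mm10 names), from 250 bases before to 50 bases after a transcript start, matched 33 of the 34 genes. Each is written from 5′ to 3′ on the gene's strand in lower case, with ACGTG, or its reverse complement CACGT, in capitals. Slc16a3 (chr11:120948817-120949116, plus strand) fell. Slc2a1 (chr4:119108495-119108794, plus strand), Hk2 (chr6:82774405-82774704, minus strand) and Ldha (chr7:46845554-46845853, plus strand) also fell. Pfkfb3 rose and has an outer window (chr2:11553880-11554179, minus strand) and an inner one (chr2:11502041-11502340, minus strand).
Slc16a3: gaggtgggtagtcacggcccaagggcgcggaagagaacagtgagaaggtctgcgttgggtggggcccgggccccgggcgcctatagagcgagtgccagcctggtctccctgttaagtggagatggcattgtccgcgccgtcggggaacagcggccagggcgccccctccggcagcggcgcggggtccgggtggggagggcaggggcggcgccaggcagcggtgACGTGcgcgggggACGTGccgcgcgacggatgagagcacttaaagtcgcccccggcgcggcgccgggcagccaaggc
Slc2a1: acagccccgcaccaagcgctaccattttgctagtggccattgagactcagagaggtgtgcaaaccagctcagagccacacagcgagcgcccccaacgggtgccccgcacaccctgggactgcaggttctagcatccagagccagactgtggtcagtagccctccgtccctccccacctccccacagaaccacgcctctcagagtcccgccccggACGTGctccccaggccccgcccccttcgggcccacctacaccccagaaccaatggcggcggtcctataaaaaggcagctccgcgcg
Hk2: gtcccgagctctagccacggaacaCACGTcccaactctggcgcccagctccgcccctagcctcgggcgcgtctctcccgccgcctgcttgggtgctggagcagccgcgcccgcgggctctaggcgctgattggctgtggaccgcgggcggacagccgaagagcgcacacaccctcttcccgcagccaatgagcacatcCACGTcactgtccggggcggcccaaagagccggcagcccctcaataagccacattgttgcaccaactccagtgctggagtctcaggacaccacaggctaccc
Ldha: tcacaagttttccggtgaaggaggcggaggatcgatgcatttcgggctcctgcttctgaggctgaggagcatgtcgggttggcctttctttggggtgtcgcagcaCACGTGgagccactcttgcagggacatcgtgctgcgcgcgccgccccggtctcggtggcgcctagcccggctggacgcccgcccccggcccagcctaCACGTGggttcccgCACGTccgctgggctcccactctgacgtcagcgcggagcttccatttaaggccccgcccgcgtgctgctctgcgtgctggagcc
Pfkfb3 outer: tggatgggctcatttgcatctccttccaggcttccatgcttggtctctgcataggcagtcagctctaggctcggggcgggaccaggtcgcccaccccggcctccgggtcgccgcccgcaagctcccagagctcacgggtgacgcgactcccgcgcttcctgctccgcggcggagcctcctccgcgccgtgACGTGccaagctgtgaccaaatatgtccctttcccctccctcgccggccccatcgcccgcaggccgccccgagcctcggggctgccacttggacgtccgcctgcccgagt
Pfkfb3 inner: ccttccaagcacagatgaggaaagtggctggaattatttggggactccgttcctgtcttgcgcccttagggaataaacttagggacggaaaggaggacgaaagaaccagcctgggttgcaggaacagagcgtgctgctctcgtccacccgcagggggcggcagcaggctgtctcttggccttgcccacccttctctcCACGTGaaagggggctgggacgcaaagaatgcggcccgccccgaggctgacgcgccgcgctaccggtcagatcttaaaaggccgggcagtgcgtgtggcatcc

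The Slc16a3 window holds ACGTG 27 and 14 bases before the start, and the Slc2a1 window holds it 36 bases before the start. In Hk2 the reverse complement stands 226 and 52 bases before the start. The Ldha window holds the palindrome CACGTG, which reads as ACGTG on both strands and is also the E-box bound by Myc, 145 and 48 bases before the start, and CACGT 34 bases before it. The inner Pfkfb3 window holds CACGTG 53 bases before its start and the outer one ACGTG 60 bases before. Over all members with a window, ACGTG on either strand was found in 19 of 33 genes, or 57.6%, against 21.8% of 27025 genes with a window. By window these shares were 43.4% of 53 and 19.6% of 32851. The variant core GCGTG, which HIF also binds, was found on either strand in 24 of the 33 genes, or 72.7%, against 35.2% of genes. The genes compared against were neither limited to those expressed here nor matched for base composition, so these shares are a description. ACGTG was present in 13 of the 19 genes that fell, in 3 of the 7 that rose and in 3 of the 6 that did not pass, so it occurs on both sides of the comparison. Genes with no ACGTG in any window include Pdk1, described below as the HIF-induced kinase, and Eno1, Tpi1 and Pfkfb4. Of these, Pdk1, Eno1 and Pfkfb4 hold GCGTG, and Tpi1 holds neither core. A match of these letters is not evidence of binding.

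Glucose entry was lower. Slc2a1 (ENSMUSG00000028645, mm10 chromosome 4, 119108711 to 119137983) encodes GLUT1, the carrier for basal glucose uptake in most cells. Control held 252 and 270 CPM, against 141 CPM in both overexpression libraries, and the groups lie far apart. Its mean fell from 261 ± 12.6 to 141 ± 0.0099 CPM (SD, n = 2), 1.85-fold lower, with a log2 fold change of -0.89 ± 0.04 (SE, limma adjusted p = 1.1e-14). Slc2a3, the gene of the high-affinity carrier GLUT3, was under the filter, with 11 and 3 reads in the control libraries and 6 and 2 with overexpression, so Slc2a1 carried nearly all reads of the pair.

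Hexokinase traps glucose in the cell by phosphorylation, and its isozymes moved unequally. Hk2, the inducible hexokinase of tumours and muscle, read 208 CPM in both control libraries, against 97.9 and 104 CPM with overexpression. It fell 2.06-fold (log2 fold change -1.04 ± 0.04, limma adjusted p = 1.1e-15). Hk1, the constitutive form, read 306 and 315 CPM in control, against 276 and 282 CPM with overexpression, a fall of 0.15 ± 0.04 on the log2 scale (limma adjusted p = 7.6e-04). Hk2 therefore made up 40.5% and 39.8% of the pair's CPM in the control libraries and 26.2% and 26.9% with overexpression. Gpi1, the isomerase that turns glucose 6-phosphate into fructose 6-phosphate, read 758 and 804 CPM in control, against 763 and 764 CPM with overexpression. Its groups overlapped and it did not pass the test (log2 fold change -0.03 ± 0.03, limma adjusted p = 0.44).

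Phosphofructokinase commits the sugar to glycolysis, and its isozymes went different ways. Pfkl, the liver-type gene, read 189 and 217 CPM in control, against 123 and 128 CPM with overexpression, 1.62-fold lower (log2 fold change -0.69 ± 0.05, limma adjusted p = 4.8e-11). Pfkm, the muscle-type gene, read 113 and 108 CPM in control, against 136 and 142 CPM with overexpression, 1.26-fold higher (0.33 ± 0.04, limma adjusted p = 8.3e-07). Pfkp, the platelet-type gene, lay between 196 and 198 CPM in all 4 libraries and did not pass (limma adjusted p = 0.98). Pfkm and Pfkp overlap Senp1 and Pitrm1 on the opposite strand. Senp1 read 78.9 and 82.5 CPM in control, against 71.7 and 66.8 CPM with overexpression. The sources used here do not give whether counting used strand, and the part of these neighbours in the values was not tested.

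The PFKFB enzymes make and remove fructose 2,6-bisphosphate, the strongest activator of phosphofructokinase. Their gene Pfkfb3 had the largest fitted rise of the 32 tested genes, though the step as a whole did not rise alike. Pfkfb3, the form with the highest kinase activity, stood at 2.74 and 1.93 CPM in control (56 and 42 reads), against 13.9 and 13.6 CPM with overexpression (220 and 229 reads). All overexpression values lie above all control values, and the mean rose 5.88-fold, from 2.34 ± 0.573 to 13.7 ± 0.168 CPM (SD, n = 2). The log2 fold change was 2.15 ± 0.15 (limma adjusted p = 1.5e-11), 1.36 with a pseudocount of 5 and 2.57 with limma-voom. Pfkfb4, an isozyme often induced in tumours, read 6.03 and 5.61 CPM in control, against 8.82 and 6.90 CPM with overexpression. It passed narrowly (0.37 ± 0.14, limma adjusted p = 0.025) and did not pass without control 2 (limma adjusted p = 0.094), without overexpression 1 (0.28) or with no filter (0.14). Pfkfb2, the heart-type gene, read 12.7 CPM in both control libraries and 11.3 and 9.94 CPM with overexpression and did not pass (-0.24 ± 0.11, limma adjusted p = 0.067), though it did without overexpression 1 (0.037). Yod1, which overlaps it on the opposite strand, read 13.03 and 14.2 CPM in control, against 28.9 and 32.3 CPM with overexpression. Pfkfb1, the liver-type gene, lay between 2.27 and 3.39 CPM in the 4 libraries and did not pass (limma adjusted p = 0.57), and Apex2 overlaps it on the opposite strand with 10.7 to 15.9 CPM. Summed over the 4 genes, the step held 23.8 and 22.9 CPM in control, against 36.3 and 33.9 CPM with overexpression.

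Aldolase cleaves the 6-carbon sugar. Aldoa, the main form in most cells, read 1218 and 1326 CPM in control, against 1302 and 1334 CPM with overexpression. These groups overlap, and Aldoa did not pass (log2 fold change 0.05 ± 0.04, limma adjusted p = 0.22); without control 2 it did, with a value of 0.11 (limma adjusted p = 0.0032). Aldoc, the brain-type form, was 4.89-fold lower, at 12.98 and 15.8 CPM in control, against 2.96 and 2.92 CPM with overexpression (-1.96 ± 0.14, limma adjusted p = 2.7e-11). With a pseudocount of 5 that value was -1.28. Aldoc gave at most 1.18% of the pair's CPM, and the summed aldolase level was 1231 and 1342 CPM in control, against 1305 and 1337 CPM with overexpression. Tpi1, which interconverts the triose phosphates, read 953 and 1034 CPM in control, against 793 and 840 CPM with overexpression and fell by 0.28 ± 0.04 on the log2 scale (limma adjusted p = 1.2e-06). Spsb2, which overlaps Tpi1 on the opposite strand, reached at most 20.8 CPM.

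The lower part of the pathway, from Gapdh to Pkm, harvests ATP and NADH, and its 5 tested genes all fell by less than 1.5-fold. Gapdh, the dehydrogenase of the first of these steps and a common reference gene, read 4541 and 5053 CPM in control, against 3417 and 3493 CPM with overexpression. It fell 1.39-fold (log2 fold change -0.47 ± 0.04, limma adjusted p = 1.5e-09). Pgam1, the mutase, read 766 and 826 CPM against 576 and 598 CPM (-0.44 ± 0.04). Eno1, the ubiquitous enolase, read 1510 and 1680 CPM against 1275 and 1303 CPM (-0.31 ± 0.04). Each of these groups is separate from the other, with gaps wider than the differences between libraries of a group. Pkm, the pyruvate kinase gene, read 3215 and 3403 CPM against 2839 and 2894 CPM (-0.21 ± 0.04). Pgk1, the kinase of the first ATP-yielding step, read 1240 and 1294 CPM against 1105 and 1175 CPM (-0.15 ± 0.04). The limma adjusted p of these 5 genes was 7.4e-04 or lower. Eno2, the neuronal enolase, was under the filter, with 4 and 3 reads in the control libraries and 32 and 16 reads with overexpression. These low counts were not tested.

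Many of these genes have annotated pseudogene or related copies, to which reads can be assigned in part. Gapdh had 264 annotated copies in the table, which together read 148 and 170 CPM in control, against 109 and 115 CPM with overexpression, and adding them left its log2 fold change at -0.47. For Pgk1, 4 copies summed to 10.2 CPM in both control libraries, 0.00063 CPM in overexpression 1 and 11.2 CPM in overexpression 2, so the libraries of that group differ in what was assigned to the copies. With them Pgk1 stood at -0.16. For the other 10 genes with such copies, adding the copies moved the log2 fold change by less than 0.01. A further unclassified transcript unit within Pkm on the same strand (ENSMUSG00000111394) read 236 and 232 CPM in control, against 163 and 174 CPM with overexpression.

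Lactate dehydrogenase turns pyruvate into lactate and restores NAD+. Ldha, the form dominant in glycolytic tissue, read 1078 and 1155 CPM in control, against 834 and 869 CPM with overexpression, 1.31-fold lower (log2 fold change -0.39 ± 0.04, limma adjusted p = 3.2e-09). Ldhb, the heart-type form, read 99.6 and 103 CPM in control, against 44.8 and 45.7 CPM with overexpression, 2.24-fold lower (-1.14 ± 0.05, limma adjusted p = 8.5e-15). Both pairs of libraries are clearly apart, and Ldhb gave 8.46% and 8.18% of the pair's CPM in control, against 5.09% and 4.997% with overexpression.

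Lactate leaves the cell through proton-linked carriers, whose genes were both lower. Slc16a3 (ENSMUSG00000025161, mm10 chromosome 11, 120948480 to 120960868) encodes MCT4, the low-affinity exporter of highly glycolytic cells. It read 98.6 and 108 CPM in control (2013 and 2355 reads) and 22.6 and 22.5 CPM with overexpression (359 and 378 reads). It was 4.59-fold lower (log2 fold change -2.15 ± 0.06, limma adjusted p = 2.7e-18), the largest fall of the 32 genes in that fit, though Aldoc fell more by fold of means (4.89-fold), with a pseudocount of 0.1 (-2.25 against -2.19) and with limma-voom (-2.28 against -2.20). Slc16a1, which encodes the more widely expressed carrier MCT1, read 114 and 113 CPM in control, against 98.4 and 103 CPM with overexpression (-0.17 ± 0.04, limma adjusted p = 0.0015). Slc16a3 therefore went from 46.4% and 49.0% of the pair's CPM to 18.7% and 17.98%, and the summed CPM of the pair from 213 and 221 to 121 and 125.

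**Figure D2:**
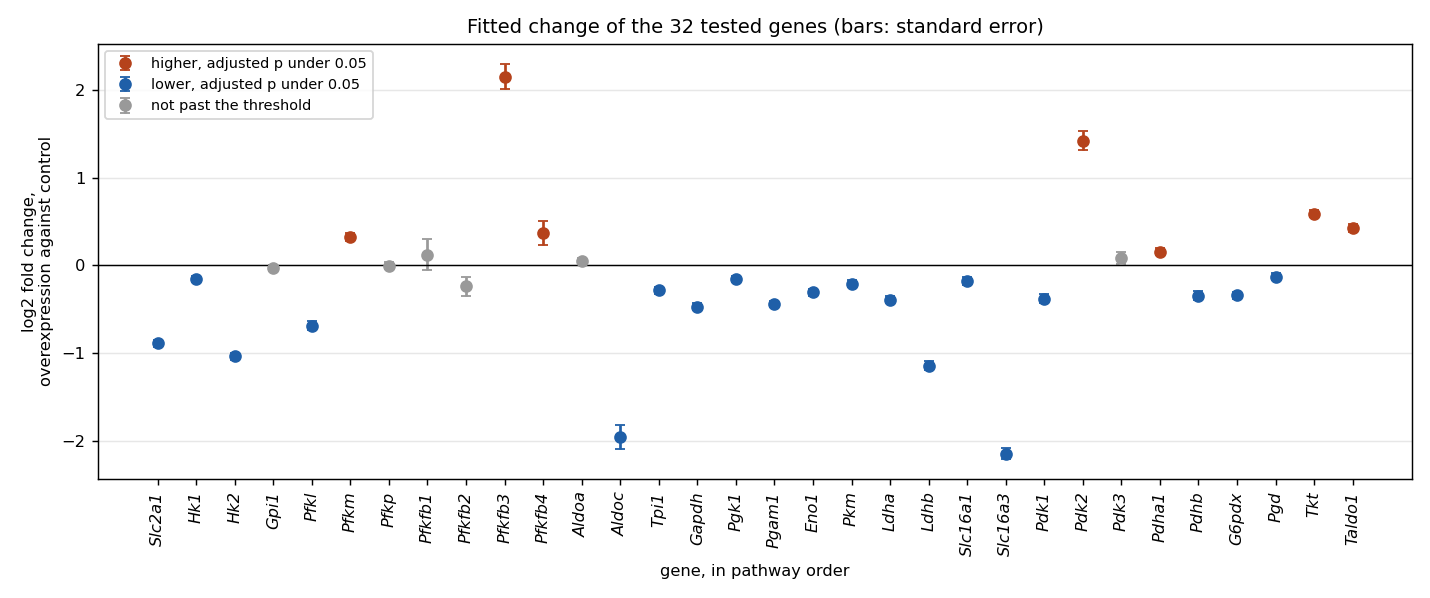
Fitted log2 fold change (overexpression against control, log2(CPM + 1) scale) of the 32 tested genes in pathway order, with standard errors as bars; blue and red mark the 19 lower and 7 higher genes at a limma adjusted p under 0.05, grey the 6 others. Slc16a3 at -2.15 and Pfkfb3 at 2.15 are the extremes, and Gapdh to Ldha sit between -0.15 and -0.47.

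Genes at the mitochondrial gate moved in both directions. The PDK kinases shut pyruvate dehydrogenase by phosphorylation. Pdk1, the HIF-induced kinase, read 82.7 and 91.4 CPM in control, against 65.8 and 67.3 CPM with overexpression (log2 fold change -0.38 ± 0.05, limma adjusted p = 1.5e-06). Pdk2, a widely expressed kinase of the family, read 6.37 and 6.95 CPM in control, against 19.9 and 19.2 CPM with overexpression, a 2.93-fold rise (1.42 ± 0.11, limma adjusted p = 1.8e-10). Pdk3 read 46.6 and 53.0 CPM in control, against 49.4 and 56.5 CPM with overexpression; the groups overlap and it did not pass (0.09 ± 0.07, limma adjusted p = 0.28), though it did without control 2 (0.042) or overexpression 1 (0.042). In sum the 3 kinases held 136 and 151 CPM in control, against 135 and 143 CPM with overexpression. The mean of Pdk1 went from 87.0 to 66.6 CPM and that of Pdk2 from 6.66 to 19.5 CPM. Per kilobase of coding exon, Pdk1 went from 16.8 to 12.8 CPM and Pdk2 from 2.96 to 8.70 CPM. Which of the changes is the larger therefore depends on whether gene length is counted, and the sum above does not count it. Of the subunits of the E1 enzyme that they act on, Pdha1, the catalytic alpha subunit, rose by 0.15 ± 0.04 (142 and 139 CPM against 156 and 157 CPM) and Pdhb, the beta subunit, fell by 0.34 ± 0.05 (97.4 and 95.1 CPM against 72.3 and 79.2 CPM). Their limma adjusted p values were 0.0017 and 3.4e-06.

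The pentose phosphate genes split by branch. In the oxidative branch, which yields NADPH, G6pdx, its entry enzyme, read 193 CPM in both control libraries and 146 and 157 CPM with overexpression (log2 fold change -0.34 ± 0.04, limma adjusted p = 1.7e-07). Pgd, the next dehydrogenase, read 174 and 184 CPM in control, against 162 and 164 CPM with overexpression (-0.13 ± 0.04, limma adjusted p = 0.0074) and did not pass without control 2 (-0.09, limma adjusted p = 0.13). Ikbkg, which overlaps G6pdx on the opposite strand, read 70.4 and 67.5 CPM in control, against 53.1 and 59.0 CPM with overexpression, and its part in the G6pdx value was not tested. In the non-oxidative branch, which trades carbon between ribose and glycolysis, both genes rose and neither pair of groups overlaps. Tkt, the transketolase gene, read 312 and 325 CPM in control, against 483 and 479 CPM with overexpression, 1.51-fold higher (0.59 ± 0.03, limma adjusted p = 1.0e-12). Taldo1, the transaldolase gene, read 122 and 134 CPM in control, against 173 and 171 CPM with overexpression, 1.34-fold higher (0.43 ± 0.04, limma adjusted p = 1.7e-08). By summed CPM the oxidative genes went from 366 and 377 to 309 and 322, and the non-oxidative ones from 434 and 459 to 655 and 651.

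Ratios of related genes within a library show these exchanges without regard to library scaling. For Hk2 to Hk1 the log2 ratio of CPM was -0.55 and -0.60 in control and -1.496 and -1.44 with overexpression. For Pfkl to Pfkm it was 0.74 and 1.01 against -0.14 and -0.15. In both, the first gene lost ground to the second with overexpression. For Pfkfb3 to Pfkfb4 it was -1.14 and -1.54 against 0.65 and 0.98. The lactate carrier ratio, Slc16a3 to Slc16a1, went from -0.21 and -0.06 to -2.12 and -2.19, and the kinase ratio, Pdk2 to Pdk1, from -3.70 and -3.72 to -1.73 and -1.81. In each of these 5 ratios the groups do not overlap. Of the 12 ratios computed, Slc2a3 to Slc2a1, which rests on few reads, was the exception. With 2 libraries against 2, the exact two-sided permutation test cannot go below p = 0.33, the value all 5 reached, so no ratio could pass.

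**Figure D3:**
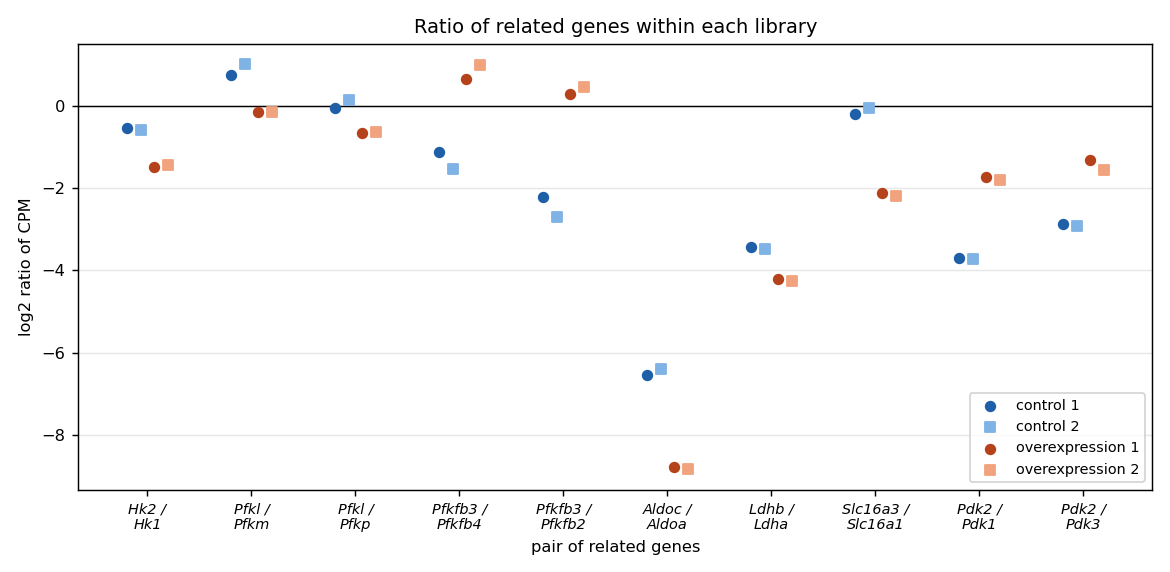
Log2 ratio of CPM for 10 pairs of related genes, 1 point per library. Blue is control, red and orange are Mtss1 overexpression, and 0 marks equal CPM, not corrected for gene length. The ratios to Pfkfb4 and Pfkfb2 cross 0 upward for Pfkfb3, Pfkl to Pfkm crosses downward from 0.74 and 1.01 to -0.14 and -0.15, and no pair overlaps between groups.

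Levels of different genes were compared per kilobase of the exons of their coding transcripts (GENCODE M21, basic set). On that scale Gapdh led with a mean of 3209 CPM per kb in control and 2311 with overexpression, followed by Pkm with 1273 and 1103. Aldoa followed with 697 CPM per kb in control and 723 with overexpression, and Pgk1 with 694 and 624; in control these genes do not differ beyond their spread. Eno1 (627 and 506), Ldha (589 and 449), Tpi1 (563 and 463), Pgam1 (449 and 331) and Gpi1 (271 and 265) came next in control. By median coding transcript the control order after Pkm was Aldoa (842), Tpi1 (825), Eno1 (812), Ldha (703) and Pgk1 (694), so the order of these 5 genes depends on the length used. Some genes of glucose entry and the first steps were far lower per kb, at 80.0 and 43.1 for Slc2a1, 37.1 and 17.97 for Hk2 and 54.5 and 33.7 for Pfkl. Per kb, Pfkl exceeded Pfkm by 1.34 and 1.62 times in the control libraries and stood at 0.728 and 0.725 of it with overexpression; with the median coding transcript as the length the values were 1.26 and 1.52 against 0.684 and 0.680, so the order turned on either length. Slc16a3 stood at 0.859 and 0.956 of Slc16a1 per kb in control by exon length but at 1.60 and 1.78 times by median transcript, so the order of the carriers in control is not settled. With overexpression Slc16a3 was below Slc16a1 by both lengths, at 0.229 and 0.218 and at 0.427 and 0.407.

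Other genes of glucose metabolism were counted from lists drawn from general knowledge, again with earlier results of these data known. Among 7 tested genes listed as other glycolytic enzymes, not all of which catalyse a glycolytic step, 2 fell, 2 rose and 3 did not pass. The 2 that rose were Bpgm and Pgam5 (0.39 ± 0.06), the latter related to the mutases by name and not an enzyme of the pathway. Eno3, the muscle enolase, fell from 133 and 136 CPM in control to 69.0 and 72.5 CPM with overexpression (log2 fold change -0.92 ± 0.05). Bpgm, which makes 2,3-bisphosphoglycerate, rose from 21.8 and 23.5 to 35.8 and 36.5 CPM (0.65 ± 0.08). Of 5 tested sugar carriers 2 fell, 2 rose and 1 did not pass. Slc2a6, a facilitative carrier of the GLUT family, fell from 13.6 and 15.4 to 4.601 and 5.24 CPM (-1.39 ± 0.13). The limma adjusted p of Eno3, Bpgm and Slc2a6 was 1.0e-07 or lower. Slc2a13, a proton-linked myo-inositol carrier, read 0.0980 and 0.138 CPM in control, at or below the floor of 3 reads, against 4.41 and 3.75 CPM with overexpression. It is counted among the genes that rose but passed the filter only through the overexpression libraries, and its values are a description.

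Genes of the ancillary proteins of the lactate carriers moved in different directions. Bsg, which encodes basigin, the partner that brings MCT1 and MCT4 to the membrane, read 704 and 707 CPM in control, against 610 and 634 CPM with overexpression (log2 fold change -0.18 ± 0.03, limma adjusted p = 5.3e-05). Emb, which encodes embigin, a related partner of monocarboxylate carriers, read 0.392 and 0.782 CPM in control, against 28.2 and 24.5 CPM with overexpression. Control libraries were near the floor and overexpression libraries well above it. Emb passed the expression filter only through the overexpression libraries, so its values are given as a description; the log2 fold change was 4.11, with 2.49 to 5.49 over 10 alternative settings. The list they belong to also holds Hagh (0.16 ± 0.06) and Glo1 (0.18 ± 0.06), which rose and do not encode carrier partners. With these, 2 of its 5 tested genes fell and 3 rose, and among the partners only Emb rose. Nptn fell as Bsg did, from 162 CPM in both control libraries to 138 and 145 CPM with overexpression (-0.20 ± 0.04, limma adjusted p = 1.9e-04).

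Past pyruvate, 14 tested genes of pyruvate entry and use were counted. Of these 4 fell (28.6%) and 3 rose (21.4%), against 34.2% and 31.9% of all tested genes. The pyruvate carrier genes Mpc1 and Mpc2 and the dehydrogenase complex genes Dlat and Pdhx did not pass. The largest change was in Gpt2, the mitochondrial alanine aminotransferase gene, which fell from 216 and 212 to 121 and 117 CPM (log2 fold change -0.84 ± 0.04). Dld, the shared E3 subunit of pyruvate dehydrogenase, fell from 169 and 162 to 111 and 122 CPM (-0.50 ± 0.05). Of 18 TCA cycle genes 4 fell, 7 rose and 7 did not pass, with a median of 0.08. Cs, the citrate synthase gene, rose from 336 and 339 to 436 and 437 CPM (0.37 ± 0.03), and Ogdh, of the oxoglutarate dehydrogenase complex, from 191 and 204 to 264 and 280 CPM (0.46 ± 0.04). Aco1, the cytosolic aconitase gene, fell by 0.50 ± 0.05. The TCA list thus had 22.2% lower and 38.9% higher genes, against 34.2% and 31.9% of all tested genes. The glycolysis genes had 59.4% and 21.9%. The difference between the lists was not tested. The limma adjusted p of Gpt2, Dld, Cs, Ogdh and Aco1 was 6.1e-09 or lower.

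Side branches that draw on glucose phosphates were not alike. Of 11 genes listed for the hexosamine pathway 7 fell (63.6%) and 2 rose (18.2%), against 34.2% and 31.9% of all tested genes. Their median log2 fold change was -0.21, and the list includes genes that use or break down hexosamines. That lean to falls is close to that of the glycolysis genes (59.4% and 21.9%, median -0.19), so it is not particular to them. Ogt, the enzyme that attaches N-acetylglucosamine to nuclear and cytosolic proteins, fell from 454 and 448 to 262 and 248 CPM (log2 fold change -0.82 ± 0.04). Gfpt2, an isozyme of the entry enzyme of that route, read 0.0980 and 0.0460 CPM in control, below the floor of 3 reads, against 1.198 and 1.2498 CPM with overexpression, and it too passed the filter only through the latter. Of 10 glycogen and sugar phosphate genes 2 fell and 4 rose. Gys1, the glycogen synthase gene of most tissues, fell from 81.3 and 92.0 to 50.3 and 49.6 CPM (-0.78 ± 0.06). Pgm3 rose from 25.1 and 26.9 to 46.0 and 45.3 CPM (0.79 ± 0.07). It is a mutase of the hexosamine route that was counted here and not among the 11 genes above. Of 12 glycerol and shuttle genes 5 fell and 4 rose, and Gpd1l, a glycerol 3-phosphate dehydrogenase gene, fell from 23.8 and 22.7 to 10.4 and 11.3 CPM (-1.03 ± 0.10). The limma adjusted p of these 4 genes was 4.8e-09 or lower. Among 7 other pentose phosphate genes 2 fell and 2 rose, with changes between -0.19 and 0.25, and of 3 tested gluconeogenesis genes 1 fell, 1 rose and 1 did not pass.

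**Figure D4:**
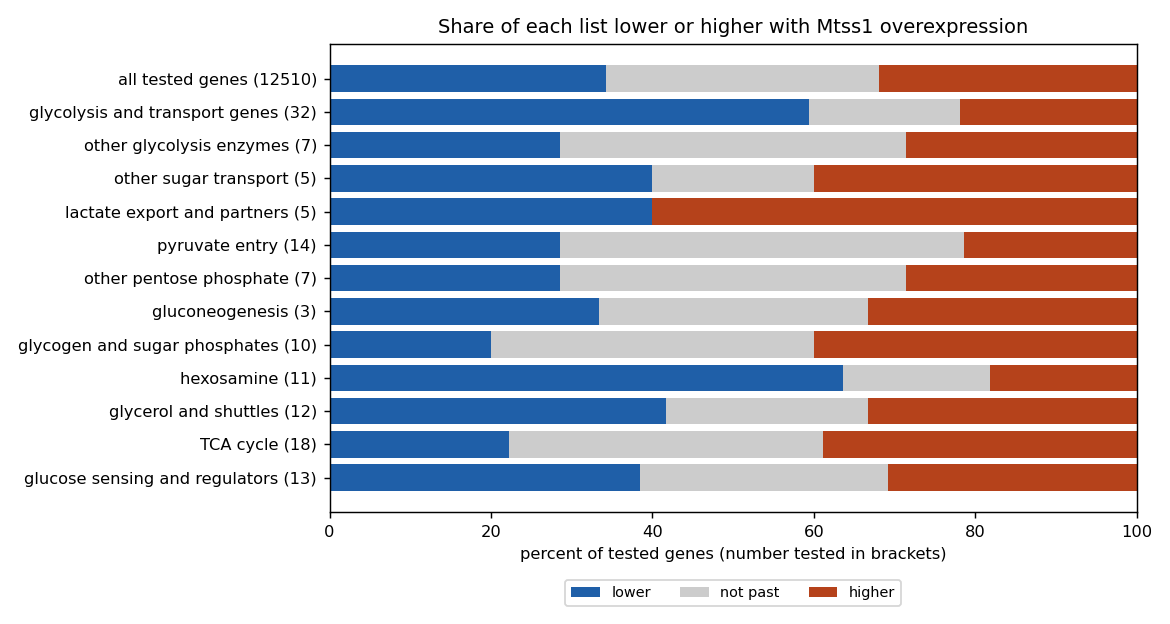
Percent of tested genes that were lower (blue), higher (red) or not past the limma threshold (grey) in each list, with the number tested in brackets and all 12510 tested genes as the top bar. The glycolysis and transport genes have 59.4% lower, the hexosamine genes 63.6%, the TCA cycle genes 22.2% and all tested genes 34.2%.

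Among regulators of glucose use Txnip stood apart. It encodes an arrestin-family protein that restrains glucose uptake, binds thioredoxin and is itself induced when sugar phosphates are plentiful. It read 234 and 246 CPM in control, against 2028 and 2024 CPM with overexpression, with a gap far wider than the spread in either group. That is an 8.44-fold rise (log2 fold change 3.07 ± 0.03, limma adjusted p = 1.0e-25). Hif1a, the oxygen-regulated HIF subunit, fell from 225 and 215 to 178 and 184 CPM (-0.28 ± 0.04), and Arnt, its constant partner, rose from 124 and 127 to 228 and 224 CPM (0.84 ± 0.04). Myc, a transcription factor that drives many glycolytic genes, fell from 219 CPM in both control libraries to 192 and 191 CPM (-0.19 ± 0.04). The limma adjusted p of these 3 genes was 8.0e-05 or lower. Ppargc1a, a coactivator of mitochondrial genes, read 2.65 and 3.36 CPM in control, against 1.01 and 0.833 CPM with overexpression. With overexpression it was thus near the filter limit of 1 CPM, and overexpression 2 was under it. Of the 13 tested regulators 5 fell, 4 rose and 4 did not pass. RNA levels of Hif1a and Arnt do not measure HIF protein or its activity.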

How the data were processed

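Total RNA of 4 Py8119 samples was sequenced as paired ends, per the labels' protocols. The deposited values are CPM, an assignment made from the values: column totals of the authors' table run from 982877 to 1016225, as counts scaled by library size and a further factor would give. FastQC 0.11.2, STAR, RSEM and build mm10 are named in the submitters' processing notes, with no roles or settings. Each library's values are multiples of a constant step taken as 1 read. Of the values under 1000 reads, 79.4% to 80.5% were whole reads within 0.005 and 100% were hundredths, the form of expected counts.

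Genes reaching 1 CPM in 2 or more libraries were tested with limma 3.58.1 in R 4.3.3 (eBayes with a mean-dependent prior, 2 residual degrees of freedom) on log2(CPM + 1), with Benjamini-Hochberg adjustment and a threshold of 0.05. The prior had 20 degrees of freedom, so each p rests mainly on a spread pooled over genes. The size of the smallest p-values depends on it: with no filter the limma adjusted p of Slc2a1 was 5.1e-05, against 1.1e-14 in the main fit. Fold changes on that scale understate the change of low genes. No count model was the main test because the deposited unit is normalized. Steps were tested on simulated data. Coordinates and exon lengths came from GENCODE M21, which matched 50376 of 50600 identifiers. Copies are rows annotated as pseudogenes whose description names the enzyme, rows named with the suffix -ps, and Eno1b for Eno1.

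Libraries of a group differed by 1.81 to 2.01 times the Poisson value (median chi-square over genes) and were kept as 2 replicates. Each listed gene is described; from each further list, named genes were taken from the 3 with the largest changes past the threshold and the 2 most abundant. Members and lists were chosen with earlier results of these data known. Alternatives were 2 pseudocounts, 2 filters, 2 scalings, limma-voom, the replicate number as a block, a threshold of 0.01 and omission of each library.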

Additional observations from a re-analysis of the deposited data

How the results depend on the processing

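Over 13 alternative settings the glycolysis genes lower numbered 18 to 20 and those higher 6 to 8, and 24 of the 32 tested genes kept direction and side of the threshold in every setting. The median log2 fold change of -0.19 moved to -0.16 with no filter, which adds the 2 lowest genes, and to -0.15 with equal library totals, and lay between -0.21 and -0.17 when a library was left out. Values that changed sign belonged to genes that did not pass the test. With equal library totals Gpi1 read 0.0059 and Pfkp 0.036, and with median-of-ratios scaling Pfkp read 0.010. Leaving out a library gave -0.074 to 0.011 for Gpi1, -0.010 to 0.0076 for Pfkp, -0.0084 to 0.11 for Aldoa, -0.0089 to 0.18 for Pdk3 and -0.091 to 0.34 for Pfkfb1; the cause was not tested. With equal library totals Aldoa passed as higher (0.09, limma adjusted p = 0.030). The replicate numbers are shared by the groups only as numbers (correlation of deviations across genes -0.024), and with the replicate block 19 genes were lower and 7 higher, as without it. Of 34 genes named by the rule from the other lists, chosen for these alternatives after seeing the data, 32 kept their call; the exceptions were Rpia and Pgls. A threshold of 0.01 gives no median, and Emb, Slc2a13, Gfpt2 and Ppargc1a had no value where the filter removed them. With a lone library in a group, its spread is assumed to equal that of the other group. Counts of under 60 reads limit Pfkfb1, Pfkfb3 in control and Aldoc with overexpression.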
